A study of Mus musculus with 2 samples.

Results

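The 9 genes described here, Apoa1, Apoa4, Apoc3, Apob, Mttp, Dgat1, Fabp1, Fabp2 and Rbp2, act in moving dietary fat and vitamin A from the gut lumen into the lymph. They were taken by name from the 31055 genes of the count table, by a rule that uses no measured value of theirs, and none of them was used to form a class of cells. The data are single-cell transcriptomes of small-intestinal crypt epithelium carrying ChgaCreER-tdTomato and Rosa26LSL-eYFP. In this model a tamoxifen-inducible Cre is driven by Chga, a granule gene of enteroendocrine cells, and a recombined cell and its descendants express eYFP. Every cell came from an epithelium that had received 5 daily injections of 1 mg tamoxifen, and no untreated or Cre-negative sample was analysed here. An eYFP sort and an unselected epithelial sort were tagged with hashtag antibodies and sequenced as 1 gene expression library plus 1 hashtag library. No source used here ties a hashtag to a sort.

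The 2335 cells kept by the authors held 1002 to 129719 unique transcript counts (UMIs), with a median of 19078. The hashtags were summed in pairs as a choice of method, with 987 cells on tags 1 and 2, 411 on tags 3 and 4 and 937 on neither by a 3-fold rule. The labels name 1 mouse, but the cells did not share a sex: 1744 were called Xist cells and 252 Y-linked cells, while 88 had both kinds of transcript and 251 neither. Since there is 1 library and no replicate, no test was made and no p-value is given. Levels are UMIs of a gene per 1000000 UMIs of a class (CPM) with exact 95% Poisson intervals. Percentages of cells carry exact (Clopper-Pearson) 95% intervals. Both cover counting error only and say nothing of the spread between animals.

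Cells that met none of the rules for the other classes were ordered by their UMIs of Alpi, the intestinal alkaline phosphatase of the enterocyte brush border. This gave 1017 cells with no Alpi UMI, 72 with 1, 44 with 2 to 4 and 81 with 5 or more. The other classes were 464 cells with at least 3 UMIs of the stem cell receptor Lgr5 and 347 with at least 5 of Tph1, the serotonin-synthesising enzyme of enterochromaffin cells. A further 75 cells had at least 0.5% of their UMIs in peptide hormones, 110 had at least 0.5% in the goblet genes Agr2, Fcgbp and Muc2, and 125 were lymphocytes by 19 immune markers. Median depth was 18991, 24613.5, 26230.0 and 28376 UMIs from the lowest to the highest Alpi bin and 2693 UMIs in lymphocytes. Lymphocytes were taken as a guide to the level that free RNA leaves for a gene they do not make. The same number of free UMIs makes a larger CPM, or share at equal depth, in such shallow cells. Their values can thus overstate this background in deeper classes. The summed CPM of 8 enterocyte markers other than Alpi was 273, 613, 1160.3 and 2983 from the lowest to the highest bin. The bin without Alpi is not a uniform starting point. It held a summed 4487 CPM of 6 stem markers and 17553 CPM of 5 Paneth cell markers, and the part of these cells in the differences below was not tested. The bin with 5 or more Alpi UMIs held 202 CPM of the stem and 236 CPM of the Paneth markers.

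Long-chain fatty acids and monoglycerides that enter an enterocyte are bound by the small cytosolic proteins Fabp1 and Fabp2 and rebuilt into triglyceride at the endoplasmic reticulum, where Dgat1 adds the last fatty acid. Mttp, the microsomal triglyceride transfer protein, loads this lipid onto apolipoprotein B as it is made, and the particle leaves as a chylomicron with Apoa1, Apoa4 and Apoc3 on its surface. Rbp2 binds retinol and its aldehyde inside the enterocyte, and the resulting retinyl esters travel in the same particles. Enterocytes arise from crypt stem cells and mature as they move onto the villus, so a crypt preparation holds few mature ones.

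Promoter sequence was available for 7 of the 9 genes, and 4 are shown because Apoa1 with Apoa4 and Fabp1 with Rbp2 were pairs with neighbouring places in the order of onset described below. They are the 250 bases before the annotated start, 5′ to 3′ on the plus strand, from RefSeq on build GRCm38.p6. Apoa1 is chr9:46228380-46228629, Apoa4 is chr9:46240594-46240843, Fabp1 is chr6:71199629-71199878 and Rbp2 is chr9:98490287-98490536. Capitals mark CAAAGNNCA, a repeat of the kind bound by HNF4, or the TATA box TATAAA, on either strand.
Apoa1: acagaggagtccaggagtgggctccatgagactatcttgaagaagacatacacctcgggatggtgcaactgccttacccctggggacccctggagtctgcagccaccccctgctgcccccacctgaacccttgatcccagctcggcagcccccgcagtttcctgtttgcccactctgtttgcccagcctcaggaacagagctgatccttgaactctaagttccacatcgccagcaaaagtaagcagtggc
Apoa4: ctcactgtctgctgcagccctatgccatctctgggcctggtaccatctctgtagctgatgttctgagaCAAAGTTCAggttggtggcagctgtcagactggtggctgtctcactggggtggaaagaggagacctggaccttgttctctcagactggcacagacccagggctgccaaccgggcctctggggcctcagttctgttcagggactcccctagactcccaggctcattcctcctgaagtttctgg
Fabp1: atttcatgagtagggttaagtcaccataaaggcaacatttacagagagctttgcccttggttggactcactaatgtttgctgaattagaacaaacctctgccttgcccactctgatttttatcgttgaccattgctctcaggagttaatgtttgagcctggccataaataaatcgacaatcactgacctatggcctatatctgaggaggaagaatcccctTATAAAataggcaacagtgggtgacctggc
Rbp2: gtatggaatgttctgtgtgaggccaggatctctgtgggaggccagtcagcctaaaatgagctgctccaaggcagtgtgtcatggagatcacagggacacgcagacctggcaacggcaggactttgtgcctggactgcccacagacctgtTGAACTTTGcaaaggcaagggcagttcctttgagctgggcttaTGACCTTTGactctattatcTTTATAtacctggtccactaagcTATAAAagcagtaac
Positions are counted from the annotated start, negative before it, and give the leftmost base of a match. CAAAGNNCA was found in Apoa4 at -182 and, on the opposite strand, in Rbp2 at -101 and -58, in Apob at -103 and in Fabp2 at -137. It was thus in 4 of 7 windows of 300 bases (250 before to 50 after the start), against 6.36% of all 32851 promoter windows. TATAAA was in 3 of 7, at -30 in Fabp1, -60 in Apob and -15 in Rbp2, which has another on the opposite strand at -38; it was in 13.6% of all windows. Of 3 further motifs searched, TTTATNG, the kind bound by CDX factors, was in 4 of 7 against 10.9%, AGATAA, the GATA kind, in 1 of 7 against 11.2%, and the HNF1 motif in 0 of 7 against 0.140%. TTTATNG can overlap a TATA box on the opposite strand. The motifs were chosen after the sequences had been seen, and a match is a run of letters and not a known binding site.

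All 9 genes were higher in cells with 5 or more Alpi UMIs than in cells with none. Together they took up 1.59% of the UMIs of these 81 cells (1.58 to 1.61%) and 0.0779% of those of the 1017 cells without Alpi (0.0768 to 0.0791%). In between, they made up 0.207% at 1 Alpi UMI and 0.471% at 2 to 4. On the log2 scale with 10 CPM added to both levels, 9 of 9 were at least 2-fold higher, as were 584 of the 10704 genes with at least 50 UMIs in the 2 bins together (5.46%). The median log2 ratio was 3.34 for the 9 genes and -0.16 for all 10704. Against Lgr5 cells the count was also 9 of 9 (background 7.9%), with a median of 3.83. Apoa1 had the highest ratio of all 10704 genes, Rbp2 was 3rd, Fabp1 4th, Apoa4 10th, Apoc3 28th, Fabp2 52nd, Mttp 56th, Apob 110th and Dgat1 119th. The others among the 10 highest with at least 200 UMIs were the glutathione transferase Gsta1 (5.88), Reg1 (5.43), the disaccharidase Sis (5.22), the sulfate-donor synthase Papss2 (4.67), Clec2h (4.55) and the trypsin inhibitor Spink1 (4.51). The count of 9 held in 13 of the 14 alternatives in which it was computed, and was 5 in the 3 Y-linked cells of the highest bin.

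**Figure D1:**
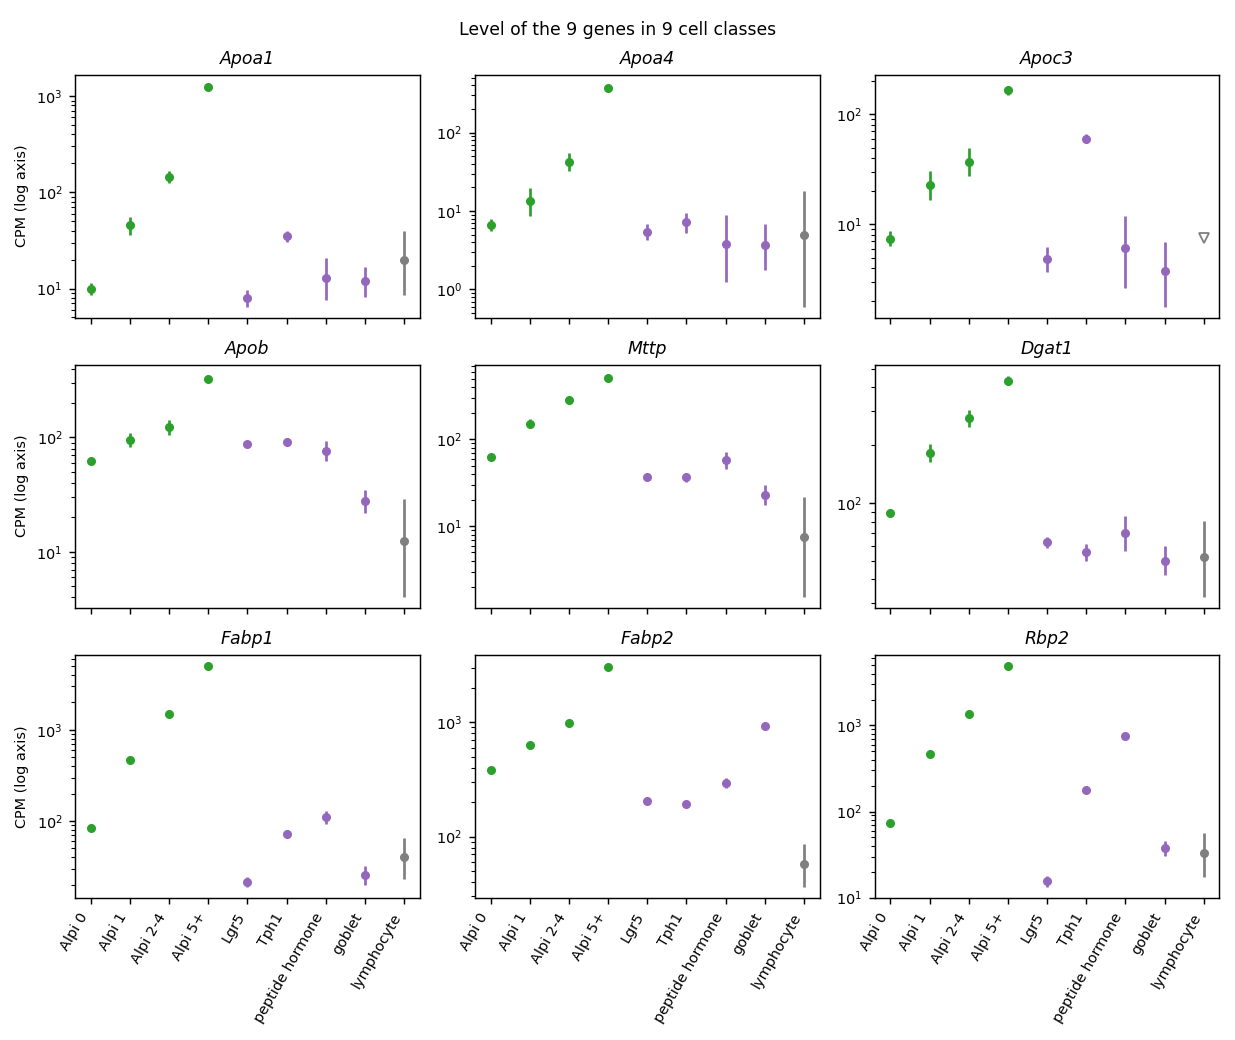
Level (CPM, log axis, a different range in each panel) of the 9 genes in 9 cell classes: green, Alpi bins; purple, Lgr5, Tph1, peptide hormone and goblet cells; grey, lymphocytes. Bars are exact 95% Poisson intervals, and the open triangle is the limit of 3 counts for 0 UMIs. Every gene has a higher level in each further Alpi bin, and Apoc3 in Tph1 cells, Rbp2 in peptide hormone cells and Fabp2 in goblet cells stand above the other classes outside the bins.

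Apoa1 had the steepest profile of the 9 from the lowest to the highest Alpi bin. Over Lgr5 cells its log2 ratio of 6.13 was below those of Rbp2 (7.58) and Fabp1 (7.30). The gene, which encodes the main protein of high-density lipoprotein and a chylomicron component, had 9.91 CPM in cells without Alpi (8.62 to 11.3), 45.3 at 1 Alpi UMI (36.2 to 56.0), 145 at 2 to 4 (126 to 167) and 1245 at 5 or more (1203 to 1288). Its log2 ratio between the highest and the lowest bin was 5.98, a 126-fold difference with a counting interval of 109 to 145. Outside the bins it had 34.9 CPM in Tph1 cells (30.5 to 39.8), where 5 cells held 45.1% of the UMIs, 13.0 in peptide hormone cells, 12.0 in goblet cells and 7.94 in Lgr5 cells, against 20.02 in lymphocytes (8.64 to 39.5). Of all classes, only the bins at 2 to 4 and at 5 or more Alpi UMIs lay wholly above the lymphocyte interval.

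Apoa4, which coats nascent chylomicrons, followed Apoa1 along the bins. It had 6.64 CPM without Alpi (5.59 to 7.83), 13.3 at 1 Alpi UMI (8.63 to 19.7), 42.4 at 2 to 4 (32.0 to 55.1) and 375 at 5 or more (352 to 399), a log2 ratio of 4.53. All other classes had 3.74 to 7.18 CPM and overlapped the lymphocyte interval of 0.606 to 18.1. Apoc3, an inhibitor of lipoprotein lipase on the particle surface, had 7.44, 22.9, 37.1 and 167 CPM from the lowest to the highest bin, with overlapping intervals at 1 UMI (16.6 to 30.9) and at 2 to 4 (27.5 to 49.1). It was the only one of the 9 whose second highest class was Tph1 cells, at 60.4 CPM (54.5 to 66.7), and it was at 0 UMIs in lymphocytes, where 3 counts would be 7.51 CPM. Apoa1, Apoa4 and Apoc3 are all on chromosome 9, as is Rbp2.

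The particle's core protein and the enzymes that fill it were already measured in cells without Alpi. Apob, the structural protein of which each particle carries a single copy, had 62.2 CPM without Alpi (58.9 to 65.6), 95.5 at 1 UMI (82.0 to 110.5), 123 at 2 to 4 (105 to 143) and 325 at 5 or more (303 to 347). Its level was 87.0 CPM in Lgr5 cells, 92.05 in Tph1 cells and 76.2 in peptide hormone cells. The intervals of these 3 classes overlapped each other and that of the 1-UMI bin, while goblet cells were lower at 27.7 CPM (21.7 to 34.7) and overlapped lymphocytes at 12.5 (4.06 to 29.2). Mttp had 62.8, 152, 283 and 513 CPM along the bins, each interval clear of the next. Peptide hormone cells (57.9 CPM, 45.6 to 72.5) overlapped the lowest bin, Lgr5 and Tph1 cells had 37.2 and 36.5 CPM, and lymphocytes had 7.51 (1.55 to 21.9). Dgat1 had 88.6, 182, 276 and 434 CPM, again with no overlap between neighbouring bins. Its levels of 50.1 to 70.1 CPM in the other epithelial classes overlapped the 52.6 CPM of lymphocytes (32.5 to 80.3). In UMIs a cell, Dgat1 had 1.78 in Lgr5, 1.02 in Tph1, 1.23 in peptide hormone and 1.22 in goblet cells, against 0.168 in lymphocytes. Lymphocytes are shallower, and whether Dgat1 exceeded free RNA in these classes was not tested. The log2 ratios of the highest to the lowest bin were 2.84 for Mttp, 2.21 for Apob and 2.17 for Dgat1, the smallest of the 9.

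Among the binding proteins, Fabp1 and Rbp2 had like profiles along the bins and Fabp2 a flatter one. Fabp1, the liver-type fatty acid-binding protein, had 83.9 CPM without Alpi, 461 at 1 UMI, 1487 at 2 to 4 and 4957 at 5 or more (4872 to 5042). The log2 ratio was 5.72, and against the 21.5 CPM of Lgr5 cells it was 7.30. Rbp2 ran almost in parallel, with 72.8, 468, 1341 and 4848 CPM (4764 to 4933) and log2 ratios of 5.87 over the lowest bin and 7.58 over the 15.4 CPM of Lgr5 cells. The ratio of Rbp2 to Fabp1 UMIs was 0.867, 1.01, 0.902 and 0.978 along the bins. Fabp2, the intestinal-type protein, was already at 385 CPM without Alpi and at 205 CPM in Lgr5 cells, and had 627, 980.0 and 3048 CPM in the next bins, with a log2 ratio of 2.95. The ratio of Fabp2 to Fabp1 UMIs accordingly fell along the bins, from lowest to highest 4.59, 1.36, 0.659 and 0.615.

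At equal depth each of the 9 genes was still found in a larger share of cells with 5 or more Alpi UMIs than of cells without Alpi. With each cell thinned to 2000 UMIs, Fabp1 was found in 75 of 80 cells with 5 or more Alpi UMIs (93.8%, 86.0 to 97.9%), in 112 of 937 without Alpi (12.0%, 9.94 to 14.2%) and in 8 of 100 lymphocytes (8%, 3.52 to 15.2%). Shallower cells were left out, 1 from the highest bin, 80 from the lowest and 25 lymphocytes, and without thinning the shares were 100%, 43.1% and 11.2%. Apoa1 was found in 24 of 80 cells of the highest bin (30%, 20.3 to 41.3%), in 27 of 937 of the lowest (2.88%, 1.91 to 4.16%) and in 4 of 100 lymphocytes (4%, 1.10 to 9.93%). The interval of its share without Alpi overlapped that of lymphocytes, whose share can overstate the background. In UMIs a cell it had 0.208 without Alpi and 0.064 in lymphocytes, and whether it exceeded free RNA was not tested. Fabp2 was in 90% of the highest bin (81.2 to 95.6%), 48.3% of the lowest (45.1 to 51.6%) and 13% of lymphocytes (7.11 to 21.2%), and its share without Alpi was above that background. Between these ends the order of the shares was not that of the levels for every gene. Fabp2 was found in 76.8% of cells at 1 Alpi UMI (65.1 to 86.1%), 72.7% at 2 to 4 (57.2 to 85.0%) and 79.0% of goblet cells (70.0 to 86.4%). Apoc3 was found in 10.1% at 1 Alpi UMI (4.18 to 19.8%), 4.55% at 2 to 4 (0.555 to 15.5%), 13.8% at 5 or more (7.07 to 23.3%) and 16.6% of Tph1 cells (12.8 to 20.9%). Within each of these sets of shares the intervals overlapped, and no order was read from them.

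The order of onset was read from the level each gene had reached in cells with 2 to 4 Alpi UMIs, as a percent of its own level at 5 or more, so that genes of different abundance could be set side by side. Dgat1 was the most advanced at 63.6% (56.4 to 71.6%), followed by Mttp at 55.2% (49.1 to 61.9%). Apob followed at 37.8% (31.8 to 44.8%), Fabp2 at 32.2% (30.3 to 34.1%), Fabp1 at 30.0% (28.6 to 31.5%), Rbp2 at 27.7% (26.3 to 29.1%) and Apoc3 at 22.3% (16.2 to 30.0%). Apoa1 at 11.7% (10.0 to 13.5%) and Apoa4 at 11.3% (8.48 to 14.8%) came last. Within this order Dgat1 and Mttp overlapped, as did Apob and Fabp2, Fabp2 and Fabp1, Fabp1 and Rbp2, Rbp2 and Apoc3, and Apoa1 and Apoa4. Mttp was clear of Apob, and Apoc3 was clear of Apoa1 and Apoa4. The enzyme and transfer protein of lipid loading thus stood nearest their final level, and the surface apolipoproteins Apoa1 and Apoa4 furthest from it. These percentages include the level already present without Alpi. That level was 20.4% of the final one for Dgat1, 19.2% for Apob, 12.6% for Fabp2 and 12.2% for Mttp. It was 4.46% for Apoc3 and under 2% for Fabp1, Rbp2, Apoa1 and Apoa4. The order therefore mixes starting level and rise, and an order by the rise alone could differ.

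A gene's onset was also taken as the first bin with at least 10% of its final level. Dgat1 (20.4%), Apob (19.2%), Fabp2 (12.6%) and Mttp (12.2%) passed this already in cells without Alpi. Apoc3 passed it at 1 Alpi UMI (13.8%), and Fabp1, Rbp2, Apoa1 and Apoa4 at 2 to 4. Fabp1 and Rbp2 were close to the limit 1 bin earlier, at 9.31% (up to 9.97%) and 9.65% (up to 10.3%), whereas Apoa1 and Apoa4 had 3.64% and 3.56% there. Between neighbouring bins, the genes at least 2-fold higher were Apoa1, Mttp, Fabp1 and Rbp2 at 1 over 0 UMIs (4 of 9, background 0.799%), Apoa1, Apoa4, Fabp1 and Rbp2 at 2 to 4 over 1 (4 of 9, background 0.377%), and all except Mttp and Dgat1 at 5 or more over 2 to 4 (7 of 9, background 1.62%). The last step was the largest for Apoa1 and Apoa4, with log2 ratios of 3.01 and 2.88, and the smallest for Dgat1, with 0.63. The bin without Alpi also holds Paneth and stem cells, so its percentages are a mean over several cell types. Several of the percentages at 2 to 4 Alpi UMIs rest on few cells or on 1 tag pair. Fabp1 had reached 12.8% on tags 1 and 2 alone and 40.4% on tags 3 and 4 alone, Fabp2 19.2% and 60.7%, Apoc3 8.34% and 29.1%, and Rbp2 17.2% and 22.8%. In that bin 5 cells held 51.7% of the Fabp1 UMIs, 48.5% of those of Rbp2, 69.4% of those of Apoc3, 83.3% of those of Apoa1 and 89.3% of those of Apoa4. Without the 5 cells with most UMIs of the gene in each bin Apoa1 and Apoa4 had reached 3.83% and 2.48% at 2 to 4 Alpi UMIs and first passed 10% at 5 or more, and with tags 1 and 2 alone they had reached 3.84% and 4.41%. Both stayed behind the other 7 genes in those settings. In barcodes that the authors left out, Apoa1 and Apoa4 had reached 28.1% and 25.1% (32.6% and 32.1% over all barcodes), ahead of Fabp1, Fabp2, Rbp2 and Apoc3, and in the 3 Y-linked cells of the highest bin the order could not be read.

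**Figure D2:**
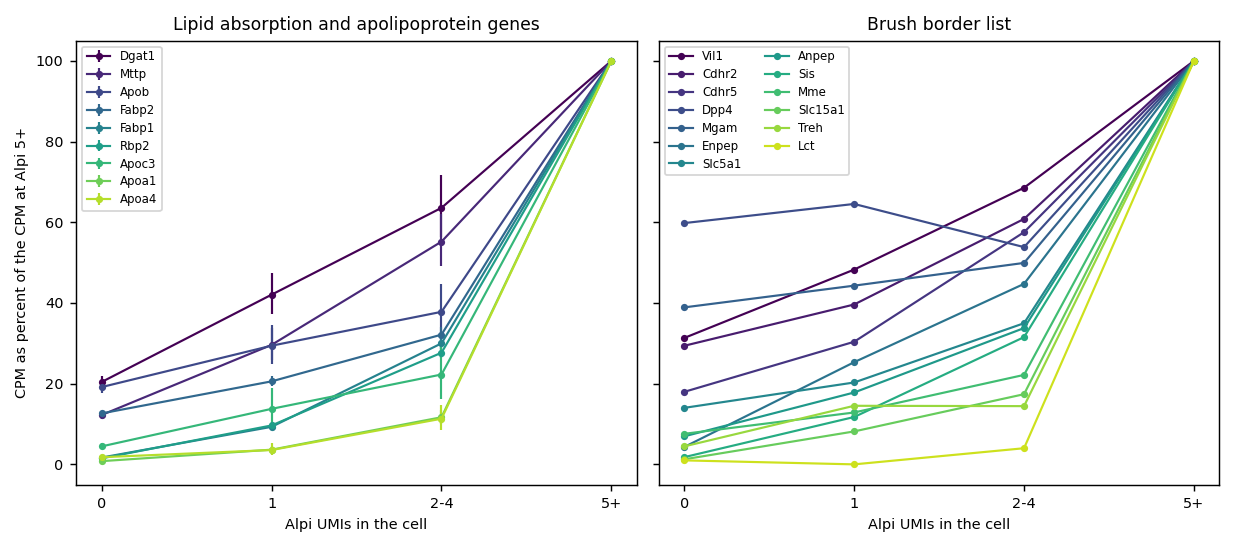
Level in each Alpi bin as a percent of the gene's level at 5 or more Alpi UMIs, for the 9 genes (left, with exact 95% intervals) and for brush border genes (right, without intervals). Dgat1 and Mttp stand above 50% at 2 to 4 Alpi UMIs and Apoa1 and Apoa4 near 11%, and the brush border genes plotted span 4 to 68.6% there.

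Brush border genes covered a similar range, with a low end that rests on 1 gene. Of 15 listed, 14 had at least 20 UMIs, and their median was 34.4% at 2 to 4 Alpi UMIs. Vil1 at 68.6% was the highest and Lct at 4% (0.478 to 14.8%) the lowest. Lct had only 1.51 CPM in that bin, and the next lowest, Treh, was at 14.4% (5.65 to 30.9%). The 9 genes had a median of 30.0% and ran from 11.3 to 63.6%. The spread among the 9 thus lay within that of the brush border list only through Lct. Its interval includes the values of Apoa1 and Apoa4, so whether these 2 were later than all brush border genes cannot be read.

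The order was also read within single cells, where 2 neighbouring pairs of genes changed places. In 188 cells with at least 1 Alpi UMI and 5000 UMIs in all, a gene was called on when its CPM was at least 10% of its own level in the highest Alpi bin. Apoc3 and Apob were left out because that level was under 1 UMI at the median depth of 27009. Dgat1 was on in 96.3% of the cells, Fabp2 in 93.6%, Mttp in 89.9%, Fabp1 in 64.4%, Rbp2 in 62.8%, Apoa4 in 28.2% and Apoa1 in 23.9%. Fabp2 thus stood ahead of Mttp here, on without it in 9 cells with the reverse in 2, whereas by bins Mttp was ahead. With a limit of 25% Mttp was ahead here too, by 28 cells. Dgat1 was on without Apoa1 in 136 cells, and Apoa1 without Dgat1 in 0. Fabp1 was on without Apoa1 in 77 cells and the reverse held in 1, and Mttp was on without Fabp1 in 49 cells and the reverse in 1. Of the 21 pairs of genes, 11 had no cell in the reverse direction and 16 had at most 2. Each of the 11 pairs holds Dgat1, Fabp2 or Mttp, which were on in nearly all cells and passed 10% already without Alpi. Few reverse cells can arise for such genes whatever the order, so no order is read from these 11 pairs. The same limit holds for Mttp with Fabp1 and for Mttp with Rbp2 (52 cells and 1 in reverse), and no order is read there either. Other pairs went both ways, with Fabp1 alone in 13 and Rbp2 alone in 10 cells, and Apoa4 alone in 23 and Apoa1 alone in 15. The limit for a gene is set by the summed level of the highest bin, which for Apoa1 comes largely from few cells, and cells of 1 library are not replicates.

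Within the 81 cells of the highest bin the surface apolipoproteins were concentrated in a minority. Apoa1 had a median of 2 UMIs a cell and a maximum of 521, 60 of 81 cells had at least 1, and 5 cells held 46.4% of its 3288 UMIs. Fabp1 had a median of 63 and a maximum of 832, Rbp2 72 and 1003, Fabp2 42 and 629, Mttp 14 and 59, Dgat1 13 and 35, Apob 8 and 40, Apoa4 1 and 124, and Apoc3 1 and 48. Fabp1, Fabp2, Mttp and Rbp2 had a UMI in 81 of 81 cells.

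The 26 cells with at least 10 Apoa1 UMIs, a limit chosen after the values were seen, held 33.2% of the UMIs of the bin. They held 97.6% of its Apoa1 UMIs, which follows from the choice, and also 93.6% of Apoa4, 83.0% of Apoc3, 76.6% of Fabp1, 73.9% of Fabp2 and 73.9% of Rbp2. Apob, Mttp and Dgat1 were less concentrated, with 59.7%, 51.8% and 44.4%. The disaccharidase Sis had 59.95% of its UMIs in these cells, and Mki67, a gene of dividing cells, 6.67%. Median depth was 31140.5 UMIs in the 26 cells and 27301 in the other 55. Apoa4 had 1058 CPM (991 to 1129) in the 26 cells and 35.7 (27.4 to 45.7) in the 55, Fabp1 11453 against 1732, and Dgat1 580.0 against 361. Dgat1 and Mttp were thus found on both sides, whereas Apoa4 UMIs lay mostly in the cells that had Apoa1.

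When the 81 cells were divided into 3 equal parts of 27 by Alpi UMIs per 10000 UMIs, the summed level of all 9 genes was higher in each further part. The level of the median cell rose as well, but for some genes by little between the lowest and middle parts. It was 1581 and 1676 CPM there for Fabp1 and 1051 and 1106 for Fabp2. Cells with at least 10 Apoa1 UMIs numbered 5, 6 and 15. From the lowest to the highest part, Apoa1 had 686, 1354 and 1907 CPM, Apoa4 152, 387 and 669, and Apoc3 60.4, 156 and 324. Fabp1 had 2549, 4546 and 8685 CPM, and Dgat1 334, 421 and 583, so that the enzyme kept the flattest profile. Apob had 235, 346 and 426 CPM, and its middle and highest parts (306 to 390.3 and 381 to 474) were the only neighbours with overlapping intervals. These intervals leave out the spread between cells. Mki67 ran the other way, with 66.9 CPM in the lowest part and 11.5 in both others. Over the 81 cells the 9 genes went together, with Spearman correlations from 0.441 to 0.860 over 36 pairs. The highest was that of Fabp1 with Rbp2, and the 8 pairs with Dgat1 ran from 0.441 to 0.714. Their correlation with depth ran from -0.0982 to 0.126. These cells share 1 library, and the values are a description.

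**Figure D3:**
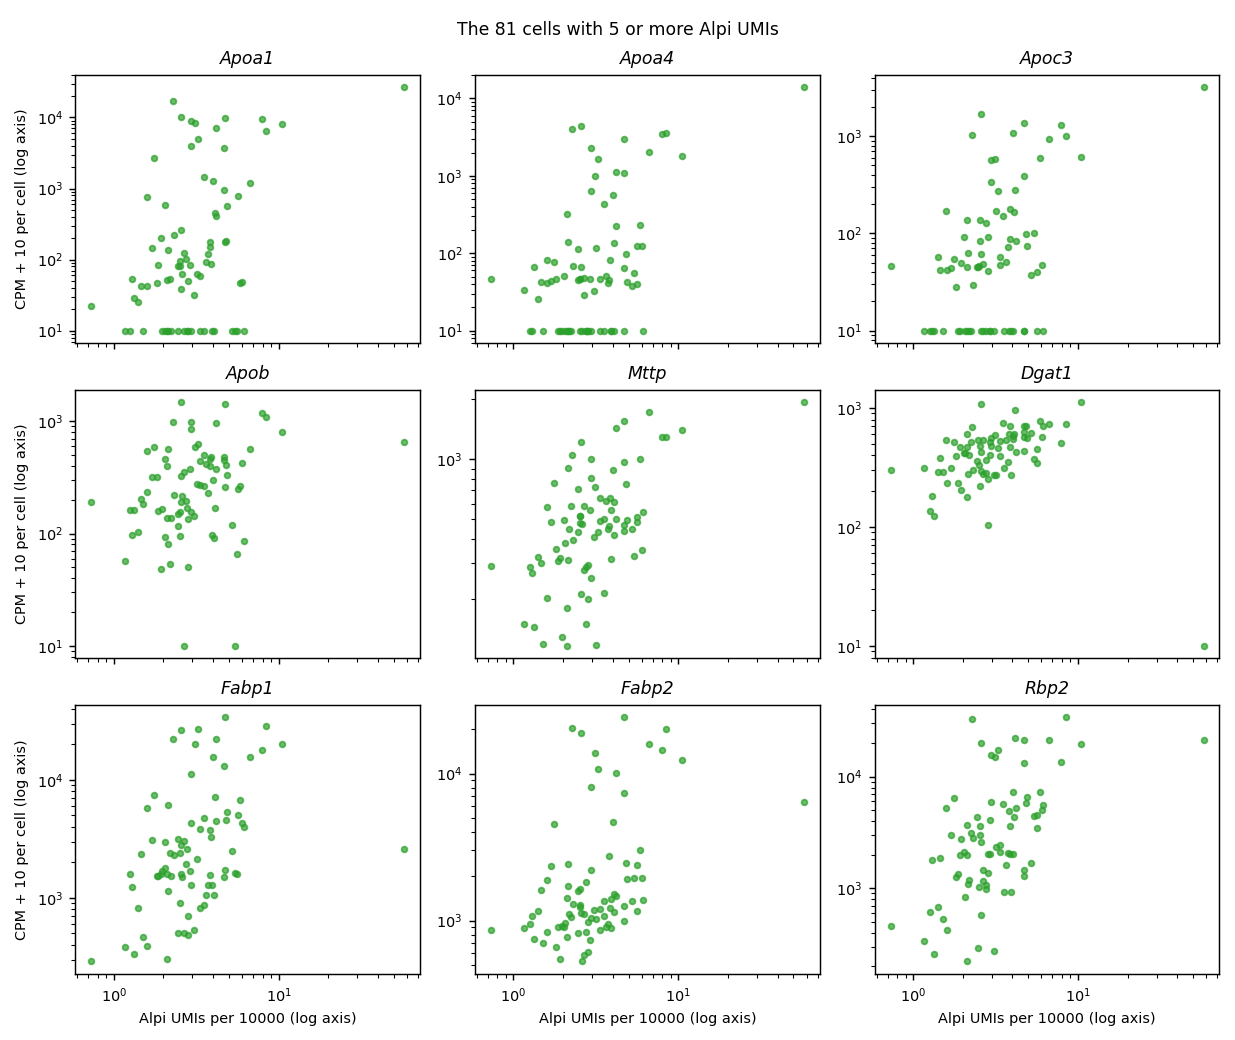
Each point is 1 of the 81 cells with 5 or more Alpi UMIs: Alpi UMIs per 10000 UMIs (horizontal, log axis) against the CPM of the gene plus 10 (vertical, log axis, a different range in each panel). Points of Apoa1, Apoa4 and Apoc3 at the bottom edge have no UMI of the gene, while Fabp1, Fabp2, Mttp and Rbp2 have UMIs in every cell.

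Outside the Alpi bins, 1 secretory class stood above the others for each of Rbp2, Apoc3 and Fabp2. Fabp1 and Mttp were also highest in peptide hormone cells among these classes. Fabp1 had 110 CPM there (93.2 to 130), against 71.9 (65.5 to 78.8) in Tph1 cells. Mttp had 57.9 CPM (45.6 to 72.5), against 37.2 (34.0 to 40.7) in Lgr5 cells. Rbp2 had 752 CPM in peptide hormone cells (706 to 800.3), above the 1-UMI Alpi bin, against 32.5 CPM in lymphocytes (17.3 to 55.6). After thinning it was found in 27 of 71 hormone cells (38.0%, 26.8 to 50.3%; 4 left out) and in 11 of 100 lymphocytes (11%, 5.62 to 18.8%); unthinned shares were 68% and 10.4%, at median depths of 12924 and 2693 UMIs. When hormone cells were divided by the hormone with most UMIs, a division made after the values were seen, Rbp2 was at 2029 CPM (1895 to 2171) in the 25 cells led by Gip, the incretin of K cells, with a UMI in 24 of them. It was at 207 CPM (170.3 to 249) in 32 cells led by Cck, of which 1 cell held 48 of 111 UMIs, at 346 (211 to 535) in 2 led by Gcg, at 48.0 (23.0 to 88.3) in 10 led by ghrelin (Ghrl) and at 10.6 (0.269 to 59.3) in 6 led by Sst. The ratio of Rbp2 to Fabp1 UMIs was 7.16 (5.90 to 8.76) in Gip-led cells and 0.978 in the highest Alpi bin, with intervals that did not overlap. Fabp1 itself was also higher in Gip-led cells, at 283 CPM (235 to 339), than in Cck-led cells, at 37.3 (22.8 to 57.6). Alpi had 3 UMIs in the Gip-led cells, all in 1 cell. The 8 enterocyte markers summed to 1425 CPM in the 75 hormone cells, against 273 in cells without Alpi, with the disaccharidase Sis at 441 CPM, and their part in the Rbp2 level was not tested. In Tph1 cells Rbp2 was at 176 CPM (166 to 186).

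Apoc3 in Tph1 cells had 60.4 CPM, with a UMI in 171 of 347 cells and at most 16 in any. After thinning it was in 57 of 344 (16.6%, 12.8 to 20.9%; 3 left out) and in 0 of 100 lymphocytes, with an exact upper limit of 3.62%; unthinned, the share was 49.3%. In 172 Tph1 cells with at least 5 UMIs of Afp, the fetal plasma protein alpha-fetoprotein, Apoc3 was at 88.3 CPM (78.8 to 98.8) and in 126 cells. In 115 Tph1 cells without Afp it was at 25.6 CPM (18.9 to 33.9) and in 22 cells, of which 5 held 61.2% of the UMIs. This division was also made after the values were seen, and the cell counts were not thinned, at median depths of 14770 and 10993 UMIs. It was not particular to Apoc3. Rbp2 had 247 CPM (231 to 264) with Afp and 85.7 (73.1 to 99.9) without, and Fabp1 97.2 (87.2 to 108) and 41.3 (32.7 to 51.5). Apob went the other way, at 68.3 (59.9 to 77.6) and 122 (107 to 138), and the intervals of the remaining genes overlapped. The ratio of Apoc3 to Apoa1 UMIs was 3 (2.39 to 3.79) in the Afp cells and 0.134 (0.121 to 0.148) in the highest Alpi bin. Tph1 cells with tags 3 and 4 had a lower Apoc3 level, 21.4 CPM (10.2 to 39.3) in 11 cells, against 64.8 CPM (57.8 to 72.5) in the 284 with tags 1 and 2. Without the cells of the highest doublet scores, which removed 79 of 347, the level was 84.9 CPM.

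Fabp2 was at 918 CPM (882 to 955) in goblet cells, close to the 980.0 CPM (927 to 1035) of cells with 2 to 4 Alpi UMIs, and in 107 of 110 cells. After thinning it was in 83 of 105 (79.0%, 70.0 to 86.4%; 5 left out), against 13 of 100 lymphocytes (13%). Its partner Fabp1 was at 25.4 CPM in the same cells, below the 40.0 CPM of lymphocytes with overlapping intervals, and the ratio of Fabp2 to Fabp1 UMIs was 36.1 (28.4 to 46.6) in goblet cells and 0.615 in the highest Alpi bin. The 63 goblet cells with Mki67 had 819 CPM (779 to 861) and the 47 without it 1141 (1069 to 1216), a division made after the values were seen. Goblet cells also held 13164 CPM of Paneth markers, whose part was not tested. In barcodes that the authors left out, put into the same classes, the 3 levels were 587 CPM for Rbp2, 51.0 for Apoc3 and 847 for Fabp2.

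**Figure D4:**
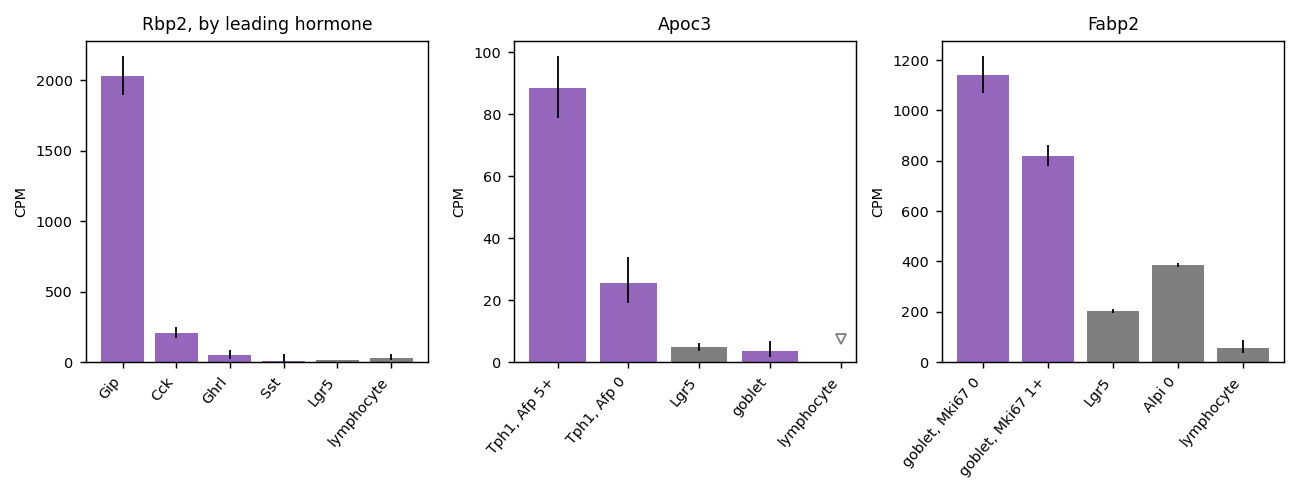
Level (CPM, linear axis, a different range in each panel) of Rbp2 by leading hormone, Apoc3 in Tph1 cells with and without Afp, and Fabp2 in goblet cells without and with Mki67; purple, secretory cells; grey, comparison classes. Bars on top are exact 95% Poisson intervals and the open triangle is the limit of 3 counts. Gip-led cells reach 2029 CPM of Rbp2, Tph1 cells with Afp 88.3 CPM of Apoc3 and goblet cells without Mki67 1141 CPM of Fabp2.

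The sorts could not be told apart by name, but the tag pairs could be set side by side. In the highest Alpi bin the 9 genes together had 16736 CPM in 17 cells with tags 1 and 2 (16407 to 17070.2) and 8063 CPM in 16 cells with tags 3 and 4 (7843 to 8287), while 48 cells had neither. Apoa1 had 1632 CPM against 504, Fabp2 3519 against 1413 and Fabp1 4959 against 2339, whereas Apob had 296 against 305 and Dgat1 371 against 376. Mean Alpi was 9.65 against 8.38 UMIs and median depth 30724 against 37174. In this bin Apoa1, Apoa4, Apoc3, Fabp1, Fabp2 and Rbp2 were higher on tags 1 and 2 with intervals that did not overlap, whereas those of Apob, Mttp and Dgat1 overlapped. These intervals leave out the spread between cells, and few cells carried the difference. On tags 1 and 2, single cells had 16957, 9854 and 8427 CPM of Apoa1, and the next highest had 442. On tags 3 and 4 the highest cell had 8821 CPM and the next 760. No difference between the tag pairs is read from this. At 2 to 4 Alpi UMIs, with 9 cells in each, the totals were 2859.5 and 3075 CPM and the genes did not go one way. Fabp1 was lower on tags 1 and 2, at 633 CPM (544 to 732) against 946 (847 to 1053), and Rbp2 was higher, at 849 (746 to 962) against 578 (501 to 663). Fabp2 had 675 CPM against 858, with intervals that overlapped, as did those of the other 6 genes.

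In the mixed bin without Alpi, 78 of the 1017 cells carried 3 or more YFP UMIs, and these 78 are not called absorptive. In the further bins it was 7 of 72 cells with 1 Alpi UMI, 3 of 44 with 2 to 4 and 6 of 81 with 5 or more. The 6 in the highest bin had 8267 CPM of the 9 genes (7882 to 8666), against 17118 (16949 to 17288) in the 71 with no YFP UMI. Apoa1 was at 143 against 1413 and Dgat1 at 410.0 against 437. These intervals leave out the spread between cells, and all 6 cells carried tags 1 and 2. Single cells of the 6 ran from 471 to 7128 CPM of Fabp1 and had at most 442 of Apoa1. A single cell without YFP reached 16957 CPM of Apoa1. No difference by YFP is read from these values. The 3 Y-linked cells of the bin had 3686 CPM against 16340 in the 75 Xist cells. In those 3 cells Apoa1 had 3 UMIs, and the log2 ratio of the highest to the lowest bin was 0.66 for Apoa1, 0.25 for Apoc3, 0.79 for Apob and -0.44 for Apoa4.

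Other genes of fat absorption were followed with lists that hold none of the 9, counted over genes with at least 20 UMIs in the lowest and highest Alpi bins together beside 5.46% higher and 7.46% lower among all genes with at least 50 UMIs. Of 8 measured genes of fatty acid and sterol entry, 5 were at least 2-fold higher in the highest bin and 0 lower (median log2 ratio 1.63). The sterol exporter subunit Abcg5 had 70.4 CPM against 10.3 in cells without Alpi, the cholesterol transporter Npc1l1 72.7 against 9.03 and the fatty acid transport protein Slc27a4 72.0 against 8.14, whereas Slc27a2 had 62.1 against 56.0. Of 10 re-esterification genes, 6 were higher and 1 lower (median 1.34). The acyl-CoA synthetase Acsl5 had 278 against 71.6 CPM and the acyltransferase Agpat2 207 against 39.5, while Lpin2 had 35.98 against 33.0 and the synthetase Acsl3 20.8 against 53.1. Mogat2, which makes the diglyceride that Dgat1 uses and was named after its value was seen, had 197 CPM against 12.9, a log2 ratio of 3.18.

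Chylomicron assembly and export gave 8 higher and 0 lower of 11 measured (median 1.29). P4hb, the partner subunit of Mttp, had 789.9 CPM in the highest bin (756 to 825) against 255 without Alpi, the vesicle-coat GTPase Sar1b 254 against 99.4, the cargo receptor Surf4 188 against 80.5 and the droplet protein Plin3 169 against 63.4. Retinoid handling gave 1 higher and 1 lower of 5 (median -0.04), with the retinol dehydrogenase Rdh7 at 125 against 12.8, Lrat, which makes retinyl esters, at 20.8 against 21.0, and Stra6l at 0.757 (0.0917 to 2.74) against 16.4. Among other lipid-binding proteins 2 of 4 were higher and 1 lower (median 0.53): the acyl-CoA-binding Dbi had 2311 against 991 CPM and Scp2 609 against 197, whereas Fabp5 had 19.3 against 59.8 and the ileal Fabp6 1.14 against 2.43.

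Of 14 transcription factors of the absorptive programme, 4 were higher and 0 lower (median 0.40), the smallest share of the lists except retinoid handling. Those with most UMIs differed little or not at all in the direction of the 9 genes: Hnf4a had 117 CPM in the highest bin against 177 without Alpi, Cdx2 153 against 162 and Isx 75.4 against 51.1, while Hnf4g had 165 against 46.5. The other 3 that passed 2-fold were Creb3l3, named with Maf and Nr1h4 after their values were seen and a membrane-bound activator of apolipoprotein genes in liver and gut, at 217 CPM against 4.96 (log2 ratio 3.93), Maf at 149.6 against 11.4 (2.90) and the bile acid receptor Nr1h4 (1.09). Brush border genes gave 13 higher and 0 lower of 14 (median 2.23), with Sis at 1090.2 against 19.5, Anpep at 509 against 35.4, Vil1 at 360 against 113 and Mgam at 268 against 104. The 9 genes had the largest median of these lists, 3.34.

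**Figure D5:**
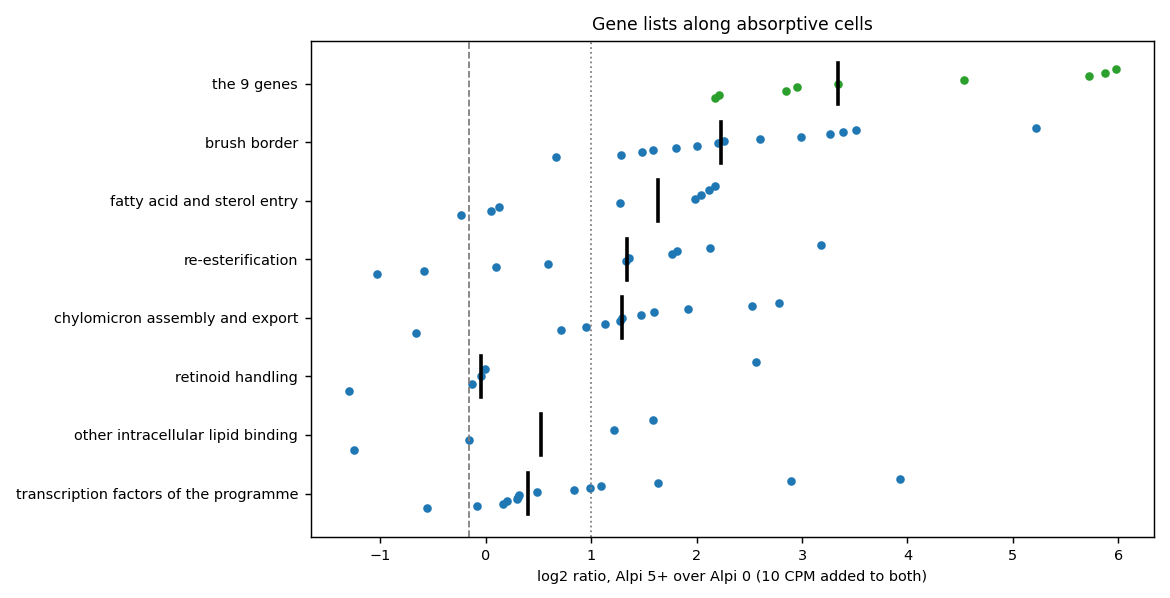
Log2 ratio of the level at 5 or more Alpi UMIs to that at 0, with 10 CPM added to both, for each measured gene of 8 lists (points) and the list's median (bar); the dashed line is the median of all 10704 genes (-0.16) and the dotted line marks 2-fold. All 9 genes lie right of 2-fold, as do 13 of 14 brush border genes and 4 of 14 transcription factors.

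The genes most like each member were taken by the Pearson correlation of log2(CPM + 10) over the 9 classes, among 8262 genes with at least 500 UMIs. Apoa1 was closest to Exoc3l4 (0.987), Gda (0.984) and Aldh1a1 (0.984), and Apoa4 to Gda (0.987), Spink1 (0.978) and Aldh1a1 (0.976). Mttp was closest to Ankrd9 (0.994), Dgat1 to the glucuronosyltransferase Ugt2a3 (0.998), Fabp1 to the cytochrome P450 Cyp4f14 (0.988) and Rbp2 to Sis (0.985). Apoc3, with its second site in Tph1 cells, was closest to the carboxylesterase Ces2a (0.993), Fabp2, with goblet cells, to Pttg1ip (0.986), and Apob to Fam109a (0.982). With 9 points and so many candidates, high values are reached easily, and they describe only these classes.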

How the data were processed

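Gene expression was measured in single cells with droplet-based 10x Genomics 3′ chemistry. Per the submitters' processing notes, the authors used Cell Ranger and Seurat; the matrix header gives software version 3.1.0, and how cells were chosen is not stated in any source used. The notes name GRCh38, a human build, while the gene identifiers are mouse ones, so promoter coordinates come from RefSeq on GRCm38.p6 alone. The authors deposited raw counts of unique transcripts (UMIs), 31055 genes by 2335 cells, and a matrix of 11248 barcodes; 0 entries differed between them. Kept cells held 51238250 of 92424393 UMIs. The labels do not say that the libraries came from separate animals, and no replicate exists.

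Counts were summed over classes with Python 3.11.15, numpy 2.4.6, scipy 1.17.1 and pandas 2.3.3, and figures were drawn with matplotlib 3.10.9. Cells meeting several rules were placed in the order lymphocyte, Tph1, peptide hormone, goblet, Lgr5, Alpi bins. Levels are CPM with exact Poisson 95% intervals; log2 ratios have 10 CPM added, which understates the change of low genes. Shares of cells were taken after thinning each cell to 2000 UMIs, with shallower cells left out. Doublets were not removed from the reported values; Scrublet (scanpy 1.11.5) with its own threshold marked only 2 cells (0.0857%), so an alternative removed the 140 cells (6%) with the highest scores. The log2 ratios, counts and intervals were computed by code tested on simulated data. With 1 library no test between conditions was made.

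The 9 genes, the gene lists and the rules were chosen with earlier results of these data known. Within a list, the 4 measured genes with most UMIs in the lowest and highest Alpi bins were named; other genes are said to be named after their values were seen. Some genes that the rule names are not reported here. Alternatives covered the bins, depth, doublet scores, left-out barcodes, tag pairs, sex-linked transcripts, pseudocount and onset threshold. Protein sequences, and promoters of Apoc3 and Dgat1, were not used here.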

Additional observations from a re-analysis of the deposited data

Results flagged for a closer look

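In the highest Alpi bin, barcodes that the authors left out carried more of the 9 genes than the cells they kept. The 79 left-out barcodes with 5 or more Alpi UMIs had 37651.9 CPM of the 9 genes together, which is 3.77% of their UMIs, against 1.59% in the 81 kept cells. This was singled out because the signal lies in data that the comparisons above do not use and exceeds the level in the kept cells. The left-out barcodes had a median of 11599 UMIs with 23.2% from mitochondrial genes, against 28376 UMIs and 8.27% in kept cells, and the part of either in the difference was not tested. The fold was 2.37, or 2.70 with mitochondrial genes removed from both totals. By gene it ran from 1.59 for Dgat1 and 1.95 for Mttp to 3.60 for Apoa1 (4486 against 1245 CPM) and 5.14 for Apoa4 (1928 against 375 CPM). In the bin with 2 to 4 Alpi UMIs, 149 left-out barcodes had 7703 CPM, against 4715 in kept cells. Outside the highest bin the fold of the 9 genes together was smaller. It was 0.958 in peptide hormone cells, 1.01 in goblet cells and at most 1.67, in Tph1 cells.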

How the results depend on the processing

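No paired analysis was possible because there is 1 gene expression library and no result comes from a test. The count of 9 genes past 2-fold held in 13 of 14 alternatives, was not computed in left-out barcodes alone, and was 5 in the 3 Y-linked cells of the highest bin, where the log2 ratio was 0.66 for Apoa1, 0.25 for Apoc3, 0.79 for Apob and reversed to -0.44 for Apoa4. The 584 genes past 2-fold, of 10704 tested, became 940 of 10704 with 1 CPM added, and 356 of 7072 on tags 3 and 4 alone and 353 of 5946 in Y-linked cells, where fewer genes were tested. The order at 2 to 4 Alpi UMIs kept 25 to 36 of 36 pairs, except 18 in Y-linked cells. The 9 genes' share of 1.59% of UMIs in the highest bin was 1.51% with Alpi bins over all kept cells, 1.81% as a mean over cells, 2.29% over all barcodes, 3.77% in left-out barcodes, 1.62% without the highest doublet scores, 1.16% without the 5 top cells, 1.67% on tags 1 and 2, 0.806% on tags 3 and 4, 1.63% in Xist cells, 0.369% in Y-linked cells, 1.91% with bins by Alpi per 10000 UMIs and 2.07% with bins by enterocyte markers, an alternative chosen after seeing the data. With a limit of 25%, cells with only Mttp on outnumbered those with only Fabp2 on by 28 (a reversal), while at 10% it was 2 such cells against 9. The cause of the other changes was not tested. Of the onset bins, 91 were the same and 44 moved over all alternatives; of the percentages at 2 to 4 Alpi UMIs, 61 were the same and 56 moved. Few mature enterocytes and 1 library limit every value.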

Other observations

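Another fatty acid-binding protein had its highest level in peptide hormone cells. Fabp5, which was looked at after the values were seen, had 2769.8 CPM (2680.5 to 2861) in these 75 cells, with a UMI in 56, and 249.8 CPM in Tph1 cells, against 19.3 CPM (14.4 to 25.4) in cells with 5 or more Alpi UMIs and 22.5 (10.3 to 42.8) in lymphocytes. By leading hormone it had 7354 CPM (7096 to 7619) in the 25 Gip-led cells, with a UMI in all 25, and 934 CPM (854 to 1019.7) in the 32 Cck-led cells, with a UMI in 19. In 6 Sst-led cells it had 659.8 CPM, in 2 Gcg-led cells 69.2 and in 10 Ghrl-led cells 33.6. Stra6l, a retinol-binding protein receptor, had 84.1 CPM (58.5 to 117) in Gip-led cells and 20.5 (10.2 to 36.7) in Cck-led cells. Sis, the brush border disaccharidase, had 363 CPM in Gip-led cells and 634 in Cck-led cells, an order opposite to that of Rbp2 and Fabp5. In Tph1 cells Afp, a fetal plasma protein, had 2078 CPM (2043 to 2113) and a UMI in 232 of 347 cells, against 9.12 CPM in cells without Alpi.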
